A study of Rattus norvegicus with 7 samples.

Results

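Ionotropic glutamate receptor subunits, which form the channels of fast excitatory transmission, were examined in cultured cells of the fetal rat spinal cord under cyclic tensile stress. The members were 8 genes: Gria1, Gria2, Gria3 and Gria4 of the AMPA receptor, Grin1 and Grin2b of the NMDA receptor, and Grik2 and Grik5 of the kainate receptor. Every probe set whose platform annotation gave exactly 1 of these symbols was taken, which gave 14 of the 31042 probe sets and 8 of the 14217 gene symbols of the array.

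The later groups were cells strained for 2 h, 6 h, 12 h, 24 h, 48 h or 72 h, and each was set against cells collected at 0 h. The cells were primary cultures from Sprague-Dawley embryos (E15), made from cord freed of its coverings and sensory ganglia and grown on a stretchable, collagen IV-coated base. Cyclic strain of 10% at 0.5 Hz began 3 days after seeding. Total RNA of 5 animals was pooled for 1 Affymetrix Rat Genome array per time, which gave 7 arrays without a replicate. No unloaded culture of a later time was analysed here, so hours of strain and hours in culture cannot be told apart.

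AMPA receptors are tetramers of GRIA1 to GRIA4 and carry most of the fast excitatory current of the spinal cord. NMDA receptors need the GRIN1 subunit, which joins GRIN2 subunits such as GRIN2B, and they admit calcium when glutamate and a co-agonist are bound and depolarisation has relieved the magnesium block. Kainate receptors combine low-affinity subunits such as GRIK2 with high-affinity subunits such as GRIK5, which forms no working channel alone. Excess activation of these receptors injures spinal neurons, a process known as excitotoxicity.

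The mean MAS5.0 signal over the 7 arrays was under 100 for every probe set of Gria1, Gria4, Grin2b and Grik2. Those 4 subunits therefore had no probe set in the tests. In Gria2, Gria3, Grin1 and Grik5, 5 probe sets reached a mean of 100 (2 of them in Gria2), and 9 of the 14 probe sets lay below it. The limit was not set by the 0 h array alone, since the 5 probe sets also averaged 110.0 to 302.5 over the 6 later arrays. Single arrays were still under 100 in Grin1 1368572_a_at (4 of 7), Gria2 1387171_at (2 of 7) and Gria3 1376892_at (1 of 7), where ratios are less precise. On each array between 42.5% and 44.3% of all probe sets were under 100. Probes differ in affinity, so a higher signal of a probe set than of another was not read as more transcript.

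**Figure D1:**
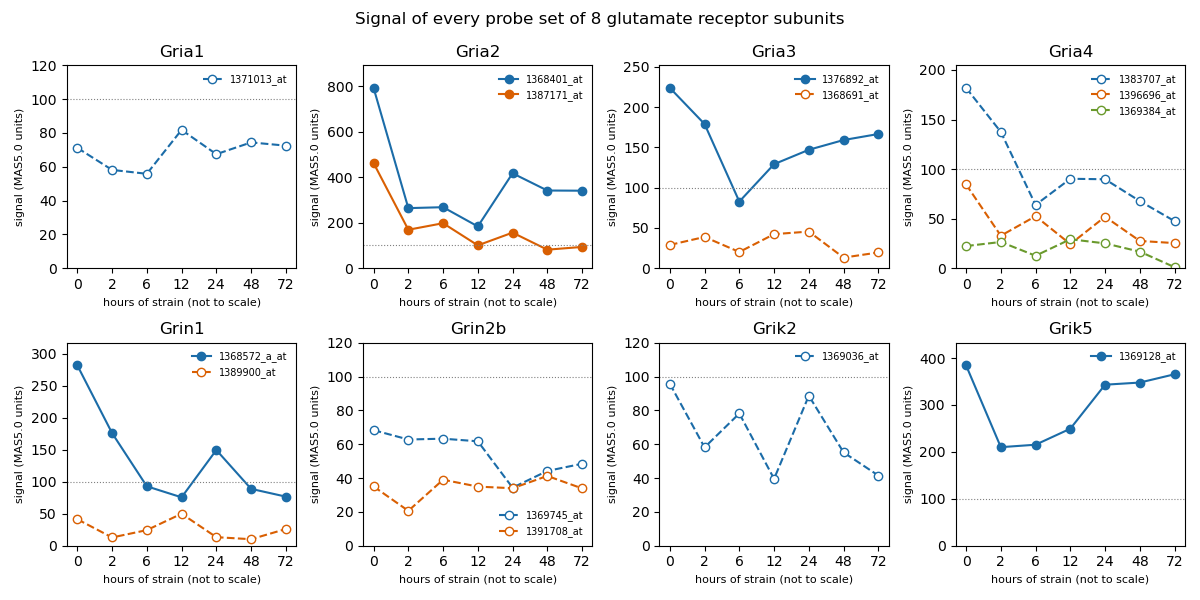
MAS5.0 signal of each of the 14 probe sets (vertical axes, which start at 0 and differ between panels) against hours of strain, 1 array per time. Filled symbols with solid lines mark the 5 probe sets with a mean of 100 or more, open symbols with dashed lines the 9 below it, and the dotted line a signal of 100. All 5 filled courses had their highest signal at 0 h as deposited, while with scaling to the same median Grik5 at 72 h equalled it.

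All 5 probe sets with a mean of 100 or more had their highest signal at 0 h and were below it on all 6 later arrays, as were 21.6% of the 17709 probe sets of the array with such a mean. With the arrays scaled to the same median, Grik5 at 72 h equalled its 0 h signal within rounding, and the other 4 stayed below theirs at all later times. Over the 5 probe sets, 2 of them of Gria2, the median change of log2(signal + 32) against 0 h was -0.78 at 2 h, -1.16 at 6 h and -1.54 at 12 h. It was -0.79 at 24 h, -1.14 at 48 h and -1.15 at 72 h. The corresponding median over all 17709 probe sets stayed between -0.035 and 0.0055. The member median counts Gria2 with 2 values, and the genes differed. At 12 h the changes were -1.93 and -1.90 in Gria2, -0.67 in Gria3, -1.54 in Grin1 and -0.57 in Grik5. At 72 h they were -1.15 and -1.98 in Gria2, -0.37 in Gria3, -1.53 in Grin1 and -0.067 in Grik5. In pooled cultures fewer cells of a type and less RNA per cell cannot be told apart, and the summed signal of 19 neuron markers was 11287 at 72 h against 29573 at 0 h. At single times the share of the 17709 below their 0 h signal was 51.6% at 2 h, 53.6% at 6 h, 49.4% at 12 h, 50.3% at 24 h, 52.0% at 48 h and 50.3% at 72 h. Of all 14 member probe sets, those of low signal included, 12 were below their 0 h signal at 2 h, 13 at 6 h, 10 at 12 h, 12 at 24 h, 12 at 48 h and 13 at 72 h. The shares above leave out probe sets with a mean under 100, as 9 of these 14 were, so they are no background for this count. No share with low signals included was computed. The median signal over the whole array was itself highest at 0 h (162.3, against 144.7 to 154.3 later).

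A linear change with hours was tested by limma over the 17709 probe sets with Benjamini-Hochberg adjustment. Of the array 15.0% rose and 14.1% fell by that test, and of the 5 member probe sets 0 passed. At an unadjusted p under 0.05 the linear test of limma took 1 of the 5 (Gria2 probe set 1387171_at) and 41.4% of the array. Neither a straight line nor a smooth curve has the form of a step after 0 h. A course with a low or high point in the middle can lack a slope. For such courses a linear and a curved term over the order of the arrays were also tested together. That F test of limma took 2 of the 5 member probe sets, Gria2 1387171_at and Grin1 1368572_a_at, beside 37.6% of the array. At an unadjusted p under 0.05 it took 3 of the 5, with Gria2 1368401_at added, and 49.4% of the array. The curved term alone took 0 of the 5 after adjustment and 3 at an unadjusted p under 0.05 (Gria2 1368401_at, Gria3 and Grik5), against 4.87% and 23.7% of the array. By the adjusted curved term 1.71% of the array was low and 3.17% high in the middle of the course.

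The study's own rule of size asks for a signal at least 2 times that of 0 h, or the inverse of this, and a difference of 200 or more, and is no test. Only the 5 probe sets above had 200 or more at 0 h and could be called lower by it. At 2 and at 6 h 2 of them were called lower (both of Gria2), at 12 h 3 (both of Gria2 and Grin1), at 24 h 1 (Gria2 1387171_at), at 48 h 2 (both of Gria2) and at 72 h 3 (both of Gria2 and Grin1). Grin1 was close to the limit, with a difference of -206 at 12 h and -205 at 72 h, and its signal at both times was under 100 (75.7 and 76.8). With quantile normalization or scaling to the same median the rule called 2 member probe sets lower at 12 h and 2 at 72 h. Among all 14444 probe sets with 200 or more at 0 h the rule called 1.01% lower at 2 h, 2.62% at 6 h, 3.68% at 12 h, 2.81% at 24 h, 6.56% at 48 h and 7.62% at 72 h. No member probe set was called higher at any time, where the rule took 0.0387% of the array at 2 h, 0.351% at 6 h, 0.419% at 12 h, 0.496% at 24 h, 1.98% at 48 h and 2.60% at 72 h.

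Gria2 encodes the subunit whose edited form keeps AMPA receptors nearly impermeable to calcium. Its probe set 1368401_at gave a signal of 792 at 0 h, 264 at 2 h, 268 at 6 h, 184 at 12 h, 417 at 24 h, 341 at 48 h and 341 at 72 h. The 6 later arrays all lay below the 0 h array, with the lowest value at 12 h. On the log2 scale their mean differed from 0 h by -1.34, with an SD of 0.37 among the 6. Here and below, the SD among later arrays is taken over 6 different times and is no spread between replicates. The linear change was -0.083 over 72 h (SE 0.53, limma adjusted p = 0.924), and the F test missed the threshold (adjusted p = 0.0801).

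The other Gria2 probe set, 1387171_at, gave 462 at 0 h, 169 at 2 h, 198 at 6 h, 100.5 at 12 h, 156 at 24 h, 81.4 at 48 h and 93.6 at 72 h. Here the 2 latest arrays were the lowest. The mean log2 difference of the 6 later arrays from 0 h was -1.63 (SD 0.42 among the 6). The probe set changed by the F test of limma (adjusted p = 0.00723), whereas its linear change of -1.31 (SE 0.48) gave an adjusted p of 0.0639. Without the 0 h array the F test gave an adjusted p of 0.187, and without the 12 h array the linear test passed (-1.47, adjusted p = 0.0305).

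The probe sets of Gria2 were on the same side of 0 h on 6 of 6 later arrays, yet their later courses differed. From 12 h on, 1368401_at had a 72 h signal 1.85 times its 12 h signal, and 1387171_at one of 0.931 times. This contrast was picked after the values were seen and was not tested. The Pearson correlation of their log2 values was 0.71 over the 7 arrays and -0.0020 over the 6 later ones, as a description of values that share the same arrays.

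Gria3, another AMPA subunit, was read by probe set 1376892_at with a signal of 224 at 0 h, 179 at 2 h, 82.7 at 6 h, 129 at 12 h, 147 at 24 h, 159 at 48 h and 167 at 72 h. The lowest value was at 6 h, and the later arrays lay between it and the 0 h array. The mean log2 difference of the later arrays from 0 h was -0.57 (SD 0.32). Neither the linear test (0.088, SE 0.35, limma adjusted p = 0.876) nor the F test (adjusted p = 0.139) passed. The second Gria3 probe set, 1368691_at, ranged between 13.2 and 45.5 and was on the same side of 0 h as the first on 3 of the 6 later arrays.

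Gria1 and Gria4 complete the AMPA family, and both are found in calcium-permeable receptors. The Gria1 probe set 1371013_at lay between 55.8 (6 h) and 81.8 (12 h), with 71.2 at 0 h inside that range. Gria4 had 3 probe sets, and 1383707_at was just under the limit with a mean of 96.9. Its signal was 182 at 0 h, 138 at 2 h, 63.9 at 6 h, 90.3 at 12 h, 89.7 at 24 h, 67.7 at 48 h and 47.5 at 72 h, so all later arrays were under the 0 h array. Fitted without the limit on mean signal, its linear change was -0.98 (SE 0.36, limma adjusted p = 0.0903). The other Gria4 probe sets, 1396696_at and 1369384_at, gave 25.4 and 1.06 at 72 h, against 84.5 and 22.4 at 0 h. Near the floor of MAS5.0 such ratios carry little precision.

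Grin1 encodes the subunit that no NMDA receptor lacks. Its probe set 1368572_a_at gave 282 at 0 h, 176 at 2 h, 92.9 at 6 h, 75.7 at 12 h, 150 at 24 h, 88.9 at 48 h and 76.8 at 72 h. The 2 and 24 h arrays stood between the 0 h array and the other 4, which were all under 100. The mean log2 difference of the 6 later arrays from 0 h was -1.19 (SD 0.40). The probe set changed by the F test of limma (adjusted p = 0.0317) but not by the linear test (-0.90, SE 0.44, adjusted p = 0.151). The F test call was lost when the 0 h, the 2 h or the 48 h array was left out (adjusted p = 0.464, 0.0782 and 0.0609). A second Grin1 probe set, 1389900_at, lay between 10.2 and 50.0 and correlated with the first at r = 0.015 over the 7 arrays.

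The glutamate-binding subunit Grin2b was under 100 on all arrays with both probe sets. Probe set 1369745_at gave 68.3 at 0 h, 62.8 at 2 h, 63.3 at 6 h, 61.8 at 12 h, 34.3 at 24 h, 44.2 at 48 h and 48.5 at 72 h. The 3 latest arrays were the lowest. Probe set 1391708_at ranged between 20.6 (2 h) and 41.3 (48 h) around 35.1 at 0 h, and the correlation of the pair was -0.24.

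Grik5, the high-affinity kainate subunit, had the smallest mean later difference of the 5 tested probe sets. Probe set 1369128_at gave 384 at 0 h, 210.0 at 2 h, 215 at 6 h, 249 at 12 h, 343 at 24 h, 348 at 48 h and 365 at 72 h. The signal was lowest at 2 h, was higher at each later time than at the one before, and at 72 h stood at 0.951 of its 0 h value. The mean log2 difference of the 6 later arrays from 0 h was -0.41 (SD 0.33). Neither the linear test (0.49, SE 0.28, limma adjusted p = 0.220) nor the curved term (0.51, adjusted p = 0.209) passed. Without the 0 h array, that is over 2 to 72 h, the linear change was 0.73 and passed (adjusted p = 0.0254), as did the F test (adjusted p = 0.0354). In that setting 2766 of the 17709 probe sets of the array rose and 2574 fell by the linear test, and 4148 passed the F test.

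Grik2, a low-affinity kainate subunit that GRIK5 can join, was under 100 on every array. Its probe set 1369036_at gave 95.8 at 0 h, 58.2 at 2 h, 78.2 at 6 h, 39.6 at 12 h, 88.7 at 24 h, 55.2 at 48 h and 41.5 at 72 h. The later arrays were all lower than the 0 h array, without a steady order among them.

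**Figure D2:**
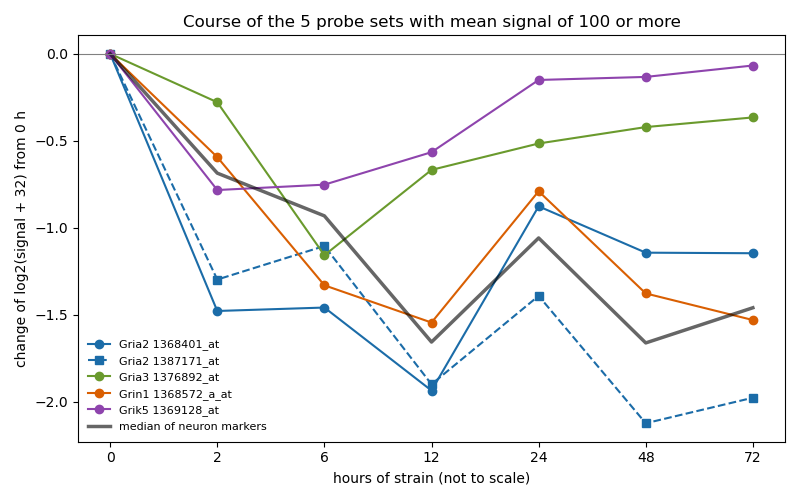
Change of log2(signal + 32) from 0 h (vertical axis) against hours of strain for the 5 probe sets with a mean of 100 or more, 1 array per time, with the median of the tested neuron markers in black. At 72 h Grik5 and Gria3 stood at -0.067 and -0.37, and Grin1 and the Gria2 probe sets between -1.15 and -1.98.

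The order of the levels of each probe set was compared with the residual SD of its curved fit. In Gria2 1368401_at the 0 h array stood 0.88 above the next one (24 h) on the log2 scale, more than the residual SD of 0.52, and the other 5 gaps between neighbours were within it. Gria2 1387171_at had 2 gaps past its residual SD of 0.40, of 1.10 between 0 and 6 h and of 0.51 between 24 and 12 h. In Grin1 the gaps past its residual SD (0.39 on the log2 scale) were 0.59 between 0 and 2 h and 0.54 between 24 and 6 h. In Gria3 only the gap of 0.49 between 12 and 6 h passed the residual SD of 0.30, and in Grik5 the gap of 0.41 between 24 and 12 h passed the residual SD of 0.29. All other neighbours in these orders differed by less than that spread. The residual SD holds the misfit of the curve and is no spread between replicates. With 1 array per time it cannot tell which levels differ.

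**Figure D3:**
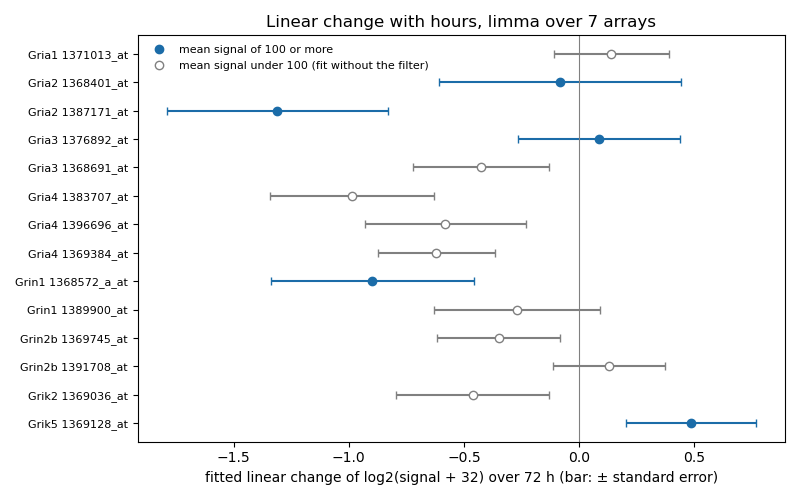
Linear change of log2(signal + 32) over 72 h by limma (horizontal axis, bars ± SE over 7 arrays) for the 14 probe sets. Filled points come from the fit to probe sets with a mean of 100 or more, open points from the fit without that limit. None of the 5 filled points passed the adjusted test, and the lowest was -1.31 (Gria2 1387171_at).

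Subunits of the same receptor were set against each other by the change over 72 h of their log2 difference, using for each gene its probe set of highest mean signal. Of 5 planned pairs only Gria3 minus Gria2 had both probe sets at a mean of 100 or more. Only the course of such a difference can be read, not its size. The difference was -1.69 at 0 h, -0.49 at 2 h, -1.39 at 6 h, -0.42 at 12 h, -1.33 at 24 h, -0.97 at 48 h and -0.91 at 72 h. All 6 later arrays lay above the 0 h array, and the change with hours was 0.17 over 72 h (two-sided exact permutation p = 0.778 over 5040 orders of the 7 arrays). This value rests on Gria2 1368401_at. With Gria2 1387171_at in its place, a choice made after the values were seen, the change was 1.40 (exact permutation p = 0.0589). With 1368401_at and without the 0 h array the change was -0.14 (exact permutation p = 0.842). The change over 72 h of the other pairs was -0.90 for Gria4 minus Gria2, 0.22 for Gria1 minus Gria2, 0.55 for Grin2b minus Grin1 and 0.95 for Grik5 minus Grik2. Those 4 values rest on a probe set under 100 and carry no test.

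RefSeq promoters (assembly GRCr8, 250 bases before to 50 after the start) were given for 4 of the 8 members, namely Gria4, Grin1, Grik2 and Grik5. Those of Grin1 and Grik5 are shown because they belong to the members outside the AMPA family with a testable signal, and because transcripts of SP1 and NRF1, factors whose motifs were searched, were measured on the same arrays. The letters GGGCGG (SP1), TGACGT (the cyclic AMP response element, CRE) and TGCGCA (NRF1) were searched on both strands, and none of the matches below overlap. Capitals mark GGGCGG or its complement. The Grin1 sequence lies on the minus strand at chr3:28528705-28529004 and the Grik5 sequence on the minus strand at chr1:89794860-89795159.
Grin1: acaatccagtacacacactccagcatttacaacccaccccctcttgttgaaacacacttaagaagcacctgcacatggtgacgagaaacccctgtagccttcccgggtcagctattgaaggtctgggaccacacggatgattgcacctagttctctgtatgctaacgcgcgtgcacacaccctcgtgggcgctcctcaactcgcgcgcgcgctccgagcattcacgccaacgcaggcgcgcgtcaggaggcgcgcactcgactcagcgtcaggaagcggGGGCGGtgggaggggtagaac
Grik5: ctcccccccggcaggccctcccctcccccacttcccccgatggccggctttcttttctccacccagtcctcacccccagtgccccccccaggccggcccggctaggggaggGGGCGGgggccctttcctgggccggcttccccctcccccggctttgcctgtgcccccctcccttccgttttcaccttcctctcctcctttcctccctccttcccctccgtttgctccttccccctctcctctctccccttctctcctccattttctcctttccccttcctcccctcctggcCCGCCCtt
The promoter of Grin1 held 1 match to GGGCGG, which began 29 bases after the start, in a window of 59.7% G and C. The promoter of Grik5 (69.0% G and C) held 2, at -139 and 42. The motif stood in 33.1% of all 33469 promoters of this length. The promoter of Grik2 held TGACGT once, as did 7.94% of all promoters at least once, and the Gria4 promoter held none of the 3 motifs. TGCGCA, present in 7.24% of all promoters, was in none of the 4. A match in these letters is a description and not a site of binding. Sp1, whose protein is a general activator of such promoters, gave a signal of 1644 at 72 h against 1545 at 0 h (limma adjusted p = 0.676). Nrf1, a regulator of respiratory and synaptic genes, rose by the linear test (1.73 times at 72 h, 0.93 on the log2 scale, SE 0.18, adjusted p = 0.00446). Rcor1, the corepressor partner of REST, gave 503 at 72 h against 397 at 0 h (adjusted p = 0.0557), and Rest itself was under 100.

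Other genes of glutamate transmission were read from lists, each gene by its probe set of highest mean signal. Of 9 other ionotropic subunits measured, only Grin2c and Grik1 had a mean of 100 or more, and 0 of these 2 passed the linear test of limma (0 at the F test). Grin2c gave 207 at 72 h against 160 at 0 h (adjusted p = 0.615) and Grik1 gave 126 against 144 (adjusted p = 0.380). Of 7 metabotropic receptors measured, Grm5 alone reached 100. Grm5, a receptor coupled to phospholipase C, fell by the linear test (64.2 at 72 h against 225 at 0 h, -1.16 on the log2 scale, SE 0.26, adjusted p = 0.00849), and it no longer passed without the 72 h array.

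Among 14 auxiliary subunits and assembly partners, 6 were testable, of which 1 rose and 1 fell, near the 15.0% and 14.1% of the array. Cnih2, a cornichon protein that binds AMPA receptors and slows their closing, gave 473 at 72 h against 1080 at 0 h (-0.78, SE 0.25, limma adjusted p = 0.0399). That call was lost without the 2, 24, 48 or 72 h array, and without the intensity trend in limma. Abhd6, a hydrolase that binds AMPA subunits and limits their delivery to the surface, gave 1212 at 72 h against 586 at 0 h (1.10, SE 0.17, adjusted p = 0.00163). Cacng2, or stargazin, the defining auxiliary subunit of AMPA receptors, gave 84.2 at 72 h against 157 at 0 h and missed the threshold (adjusted p = 0.0895).

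Of 28 genes of the postsynaptic scaffold, trafficking and signalling list, 21 were testable, and 1 rose and 6 fell, beside 15.0% and 14.1% of the array. The kinase subunits Camk2g and Camk2b, whose enzyme phosphorylates GRIA1, stood at 0.413 and 0.412 of 0 h at 72 h (-1.18, SE 0.22, limma adjusted p = 0.00386, and -0.96, SE 0.26, adjusted p = 0.0207). Camk2g was still at 1.02 of 0 h at 24 h. Camk2d, a further subunit, fell less and stood at 0.853 at 72 h (-0.47, SE 0.14, limma adjusted p = 0.0342). Homer1, a scaffold linked to metabotropic receptors, stood at 0.445 (-1.12, SE 0.26, adjusted p = 0.0101). Nlgn2, an adhesion protein of inhibitory rather than excitatory synapses, gave 365 at 72 h against 171 at 0 h and rose (1.80, SE 0.40, adjusted p = 0.00866). Its signal was first lower, at 71.3 at 2 h and 75.2 at 6 h, and the log2 change from 0 h to 72 h was 0.97, less than the fitted value. The count that fell was 4 without the 2 h array and 2 without the 48 h array. The median log2 change of the 21 genes against 0 h was -0.60 at 72 h, beside -0.0040 over all probe sets tested.

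Of 9 genes of glutamate and co-agonist handling, 5 were testable, and 1 rose and 2 fell, where 15.0% and 14.1% of the array did. Slc17a6, which encodes the vesicular transporter VGLUT2 of glutamatergic spinal neurons, gave 256 at 72 h against 1330 at 0 h (-1.97, SE 0.57, limma adjusted p = 0.0278). Slc1a1, the neuronal glutamate transporter, gave 51.7 at 72 h against 290 at 0 h (-1.43, SE 0.42, adjusted p = 0.0288). Slc6a9, the glycine transporter GLYT1 of glia, rose (1093 at 72 h against 523 at 0 h, 0.99, SE 0.23, adjusted p = 0.0115). Of the 5 genes 0 fell when the 2 h or the 48 h array was left out, and 1 fell when the 6 h or the 72 h array was. The editing enzymes that recode receptor transcripts, Adar and Adarb1, gave 398 and 205 at 72 h against 420 and 291 at 0 h, and 0 of the 2 passed (adjusted p = 0.920 and 0.555).

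**Figure D4:**
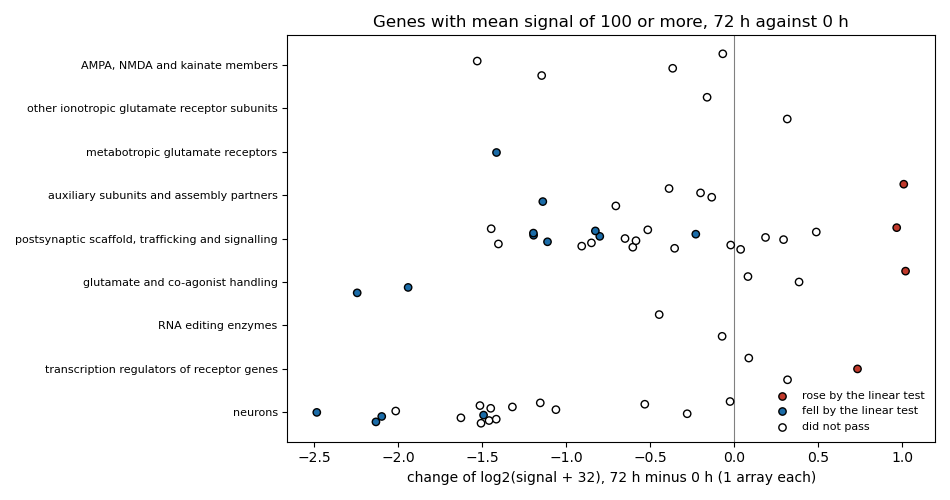
Change of log2(signal + 32) at 72 h minus 0 h (horizontal axis, 1 array each) for each gene with a mean of 100 or more, by list. Red points rose and blue points fell by the linear test of limma over 7 arrays, white points did not pass. None of the 4 members passed, and in the postsynaptic list 6 genes fell and 1 rose.

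Markers of the cells in the culture were read on the same arrays. Of 19 neuron markers, 17 were testable. By the linear test of limma 0 rose and 4 fell (14.1% of the array fell). The count that fell was 2 without the 2 h array, 9 without the 12 h array and 1 without the 48 h array, and it was 13 with log2(hours + 2), 11 with the rank of time and 7 with scaling to the same median. By the F test 15 changed, beside 37.6% of the array. Without the 0 h array that test took 6 of the markers and 4148 of the 17709 probe sets. The summed signal of the list was 29573 at 0 h, 17993 at 2 h, 14760 at 6 h, 10030 at 12 h, 13512 at 24 h, 8965 at 48 h and 11287 at 72 h, with Rbfox3 (NeuN) at 113 at 72 h against 379 at 0 h. The 4 markers of motor and cholinergic neurons measured (Chat, Isl1, Slc5a7 and Slc18a3) all had a mean under 100. Astrocyte and microglial sums ranged between 60653 and 84531 and between 27492 and 58470 over the arrays, fibroblast sums between 74353 and 90210. Of 9 testable microglial markers 6 fell by the linear test, beside 14.1% of the array. Muscle markers, with Myog and Acta1 among them, summed to 2580 at 72 h against 11713 at 0 h. The ratio of 3' to 5' signal of beta-actin was 1.82 at 0 h and 1.53 at 2 h. It was then higher at each later time than at the one before, up to 2.62 at 72 h. That of GAPDH lay between 1.09 and 1.17. The part of these measures in the receptor values was not tested.

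Set against the median change of the neuron markers, the members lay on both sides of it. Gria2 1387171_at was lower than that median at all 6 later times, by differences between -0.61 and -0.17 on the log2 scale. Gria2 1368401_at was lower at 2 to 12 h (-0.79 at 2 h) and higher at 24 to 72 h (0.31 at 72 h). Grin1 stayed within -0.40 and 0.28 of the median at all times. Gria3 and Grik5 stood 1.09 and 1.39 above it at 72 h. These differences describe 1 array per time and carry no test.

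Probe sets most like the members were taken by Pearson correlation of log2 values over the 7 arrays, among about 14008 others with 1 symbol and a mean of 100 or more. For Gria2 1368401_at they were Gpr85, an orphan receptor of neurons (r = 0.987), Tro (r = 0.982) and Dpf1, a chromatin remodelling subunit of neurons (r = 0.970). Gpr85 gave 466 at 0 h, 121 at 12 h and 235 at 72 h. For Grin1 they were Vangl2, a planar cell polarity protein (r = 0.997), the adhesion receptor Adgrl2 (r = 0.990) and Tspyl1 (r = 0.985). Vangl2 gave 600.2 at 0 h, 311 at 12 h and 299 at 72 h. For Grik5 they were Ralgapa1, Tnik and the long non-coding RNA Meg3, each at r = 0.976. Tnik, a kinase found at synapses, gave 277 at 0 h, 157 at 12 h and 308 at 72 h. With 7 points from shared arrays and so many candidates, high values of r are a description only.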

How the data were processed

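RNA of 5 pooled animals per time was hybridised to 7 Affymetrix Rat Genome arrays. The authors computed the deposited signal intensity by MAS5.0 in GCOS, with global scaling. Trimmed means were 500.1 to 500.2 and medians 144.7 to 162.3. No detection call was used here, a step in which the authors left out certain spots was not repeated, and the number of arrays limits the precision. The 57 controls were left out. Of 31042 probe sets 20826 carried 1 symbol in the platform annotation, 436 several and 9780 none, and 0 symbols changed through gene identifiers. Tests used limma 3.58.1 in R 4.3.3 (lmFit, then eBayes with trend) for the 17709 probe sets whose mean reached 100, after log2(signal + 32), and Benjamini-Hochberg adjustment to 0.05. The linear term of hours left 5 residual degrees of freedom, the linear and quadratic terms of time rank 4, so p-values measure the spread around a course and not between cultures. Python 3.11.15 served for the rest, with scipy 1.17.1. The fits were run on simulated data with independent noise and seeded changes of the same linear and curved forms. That run does not cover other courses, such as a step after 0 h. Members and lists were chosen with earlier results of these data known. Named genes were all members, up to 4 per list past the linear test or the rule of size at 72 h by size of change, and the 3 most alike genes per receptor family. The others (such as Cacng2, Grin2c and the regulators) were named after their values were seen. Alternatives were other pseudocounts, limits, scalings, forms of time, baselines and thresholds, and each array left out.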

Additional observations from a re-analysis of the deposited data

How the results depend on the processing

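No paired analysis was possible because each time has 1 array and no replicate number is shared by 2 samples of a group. Of the 5 tested member probe sets 0 passed the linear test, against 2 with log2(hours + 2), 2 with the rank of time, 1 with quantile normalization, 1 with scaling to the same median, and 0 to 1 with an array left out (Grik5 without 0 h, Gria2 1387171_at without 12 h). Gria2 1387171_at was the 1 under both scalings (adjusted p = 0.0468 and 0.0435). It passed with Grin1 in log2(hours + 2) (-1.69, adjusted p = 0.0110, and -1.21, 0.0419) and in rank of time (0.0125 and 0.0467). The F test took 2 of the 5, against 1 with no limit and 1 to 3 with an array left out (the curved term 0 to 1). With a mean of at least 200 only 2 member probe sets were left, neither of them among those called, and 0 passed. Directions turned for the linear change of Gria2 1368401_at without 0 h (0.49, lowest -0.26 with another array left out), of Gria3 in log2(hours + 2) (-0.20), in rank of time (-0.16), without 6 h (-0.15) and without 72 h (-0.043, highest 0.35), for the curved term of Grik5 without 0 h (-0.055, highest 0.60), and for Gria3 minus Gria2 without 0 h (-0.14, range to 0.44). With the other Gria2 probe set, an alternative chosen after seeing the data, that difference was 1.40. The rule of size took 3 member probe sets at 72 h, against 1 with the mean of 0 and 2 h as baseline. It took 2 there with a ratio of 3, with quantile normalization or with scaling to the same median, and 4 with a ratio of 1.5 and difference of 100. Over the array, leaving out an array gave 1316 to 2766 that rose, 1276 to 2574 that fell, 0 to 283 low and 0 to 543 high in the middle, and 4018 to 6365 by the F test. The curved counts (302 low, 561 high) were 100 and 260 with no limit, 53 and 103 without the intensity trend, and 1082 high with median scaling. At 12 h the rule called 130 higher and 532 lower, against 854 and 1692 with a ratio of 1.5 and difference of 100, 36 and 240 with a ratio of 3, and 75 and 252 with the mean baseline, and 219 higher with median scaling. At 72 h 807 and 1100 were called, against 2626 and 2914 and 294 and 489 with the same ratios. Scaling to the same median shifted the later arrays against 0 h by 0.07 to 0.17 on the log2 scale. The median change of the tested probe sets from 0 h was 0.06 to 0.14 after it. The cause of these shifts was not tested.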
